A study of Mus musculus with 22 samples.

Results

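The CCN genes encode secreted matricellular proteins, that is, proteins that sit in the extracellular matrix and signal to cells without building the matrix itself. Their transcripts were measured in the dentate gyrus of mice in which the transcription factor SRF was deleted from excitatory forebrain neurons, with and without seizures. The genes were taken by name, from the current symbol or the older one, and 5 of the 20289 genes on the arrays belonged to the set: Ccn1 (Cyr61), Ccn2 (Ctgf), Ccn3 (Nov), Ccn4 (Wisp1) and Ccn5 (Wisp2). They were covered by 10 of 46237 probes, with 3 for Ccn1, 2 each for Ccn2, Ccn3 and Ccn4, and 1 for Ccn5. No probe carried the name of Ccn6, the remaining member of the family.

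RNA of 22 male adult mice, 1 array for each animal, was profiled on Illumina MouseWG-6 v2.0 BeadChips. KO mice carried loxP-flanked Srf (Srf f/f) and CaMKCreERT2, a tamoxifen-dependent Cre recombinase under the CaMKIIα promoter, which is active in excitatory forebrain neurons, so that the deletion is limited to cells that make Cre. CTR mice were Srf f/f littermates without Cre, and both genotypes had received tamoxifen. Kainic acid (KA), which activates glutamate receptors of the kainate class and evokes seizures, was injected intraperitoneally at 35 to 50 mg/kg, and tissue was collected 6 h after status epilepticus or after a saline injection, which gave 5 KO KA, 5 CTR KA, 6 KO saline and 6 CTR saline arrays. Values are log2 signals, which ran from 6.69 to 16.12 over all probes with a median of 7.88, and a signal near 8 is therefore close to the low end, where a fold change is understated. The main probe of a gene is the one with the highest mean signal. Calls were made from limma at an adjusted p under 0.05 together with a fold change above 1.5. For the interaction of genotype and treatment, which is the KA response in KO minus that in CTR, the threshold was an adjusted p under 0.01. The tissue was a mixture of cells, and fewer cells of a type and less RNA per cell cannot be told apart in it. Markers of dentate granule cells averaged between 9.23 and 10.01 per array, with 2 of the 7 markers, Calb1 and Stxbp6, below the median signal, and markers of pyramidal cells, vessels, meninges and choroid plexus were detected as well.

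CCN proteins share an insulin-like growth factor binding protein-like module, a von Willebrand factor type C module and a thrombospondin module, and all but CCN5 end in a cysteine knot module. They bind integrins, syndecans and LRP receptors and also growth factors such as VEGF-A, BMP4 and members of the TGF-β family. Ccn1 and Ccn2 are classical immediate-early genes of fibroblasts and vessels, known to be driven by SRF with its MRTF cofactors and by YAP and TAZ with TEAD factors, whereas Ccn4 was first known as a gene induced by Wnt1.

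Srf itself, from its probe with the higher signal, averaged 11.23 ± 0.20 (SD, n = 5) in KO KA and 12.06 ± 0.20 (SD, n = 5) in CTR KA mice. After saline it averaged 11.41 ± 0.17 (SD, n = 6) in KO and 12.45 ± 0.12 (SD, n = 6) in CTR mice, and the KO arrays lay below the CTR arrays in both treatments. The dentate gyrus also holds cells that do not make Cre, so Srf signal in KO tissue is no measure of deletion per cell. The sample names behind each group value are those of the deposited log2 table. A second deposited table holds nearly the same 22 signal columns under other names, 14 of them under a name of another group, and the labels do not settle which table is named correctly. Under the names of that table the Srf signal overlapped between the genotypes, at 11.32 to 12.36 in KO KA and 11.19 to 12.50 in CTR KA columns and at 10.92 to 12.49 in KO saline and 11.11 to 12.61 in CTR saline columns. Srf bears on the genotype names only, and no gene was compared between the tables in this way for the names of the treatments. Under the names of the log2 table, all KA arrays lay above all saline arrays for 7.53% of all genes in KO and 9.29% in CTR mice.

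The promoter of Ccn1 is shown because Ccn1 was the member with the lowest KA level in KO relative to CTR mice, and because SRF, CREB and TEAD factors are known to act on it. RefSeq (GRCm38.p6) places Ccn1 at chr3:145646971-145649985 on the minus strand, and the 250 bases before its start, chr3:145649986-145650235, read as follows, with the TEAD motif CATTCC, the core CGTCA of a CRE and the TATA box TATAAA in capitals.
Ccn1: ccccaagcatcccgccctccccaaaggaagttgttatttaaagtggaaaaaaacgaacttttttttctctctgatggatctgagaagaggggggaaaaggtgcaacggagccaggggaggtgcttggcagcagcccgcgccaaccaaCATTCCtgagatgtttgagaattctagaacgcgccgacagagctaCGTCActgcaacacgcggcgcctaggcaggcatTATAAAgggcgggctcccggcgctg
The TEAD motif covered the bases 103 to 98 before the start, the CRE core the bases 58 to 54 and the TATA box the bases 25 to 20. Both strands were searched, and of 32851 mouse promoters of the same length 12.6% held CATTCC, 17.8% held CGTCA and 12.4% held TATAAA. No CArG box (the motif of SRF, held by 1.47% of promoters), no full CRE TGACGTCA (1.55%) and no AP-1 motif TGANTCA (6.75%) was spelled in this window. These matches describe letters, not bound sites.

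On their main probes Ccn1, Ccn2 and Ccn4 were called higher after KA in both genotypes. The size of the rise moved in opposite directions in KO mice, being smaller for Ccn1 and larger for Ccn4. The Ccn2 call in KO mice and the Ccn4 interaction were each lost when certain single arrays were left out. The Ccn1 call after KA in KO mice and all calls of Ccn4 came from the main probe alone. Ccn1 was lower and Ccn4 higher in KO KA than in CTR KA mice, Ccn2 varied so widely between animals that its difference between the genotypes was not called, and Ccn3 and Ccn5 stayed near the low end in every group. In KO mice 3 of the 5 CCN genes were called higher after KA, where 4.33% of all genes were. In CTR mice 3 of 5 were called higher, where 9.15% of all genes were. None was called between KO and CTR after saline, where 0.00493% of all genes were called. After KA, 1 was called higher and 1 lower in KO than in CTR, against 2.8% and 3.84% of all genes. The same 2 genes had a called interaction, 1 positive and 1 negative, against 1.31% and 1.78% of all genes.

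**Figure D1:**
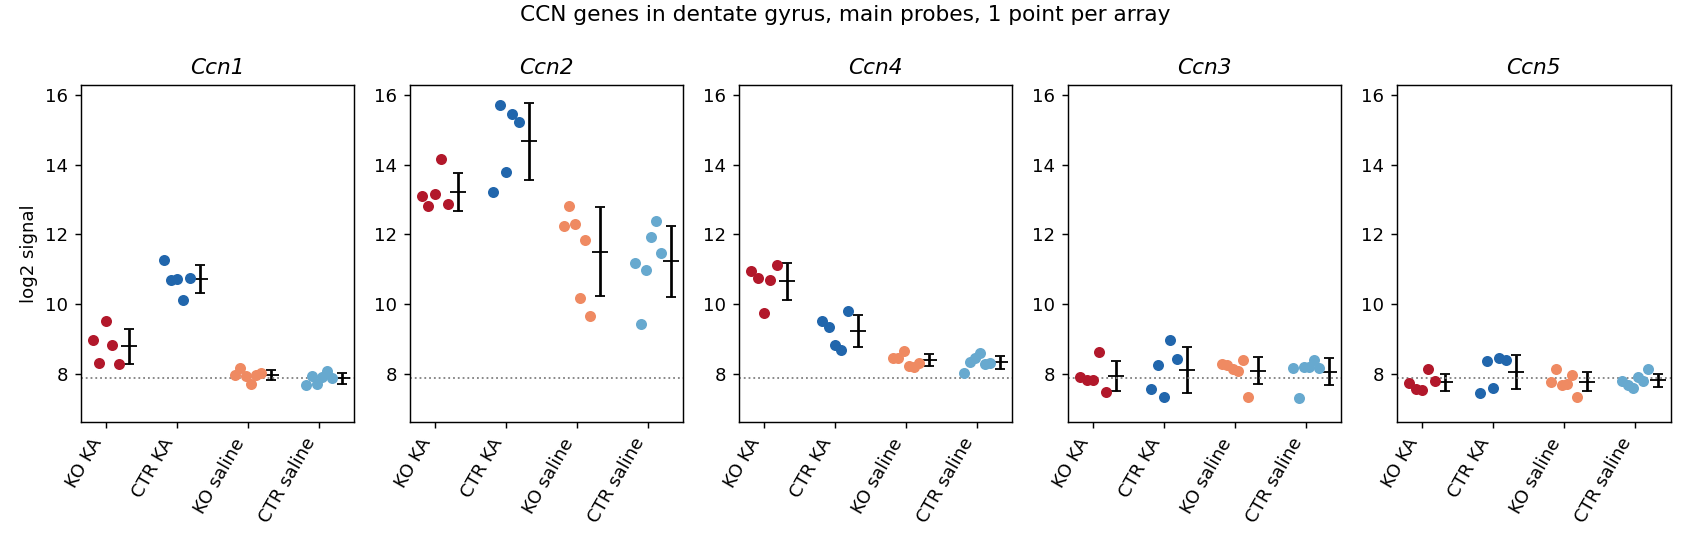
Log2 signal (y axis) of the main probe of each CCN gene in the 4 groups (x axis), 1 point per array, with the group mean ± SD in black and the median of all signals, 7.88, as a dotted line. Ccn1 is highest in CTR KA and Ccn4 in KO KA, Ccn2 is spread widely within each group, and Ccn3 and Ccn5 lie near the dotted line.

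Ccn1, which binds integrins and promotes cell adhesion and vessel growth, lay at the low end of the scale in mice without seizures. Its log2 signal was 8.98, 8.31, 9.52, 8.82 and 8.29 in the KO KA arrays, against 11.27, 10.70, 10.71, 10.13 and 10.75 in the CTR KA arrays. Each KO array was below each CTR array, as was the case in this comparison for 3.47% of all genes. After saline the lowest, median and highest arrays had 7.70, 7.96 and 8.17 in KO mice and 7.67, 7.88 and 8.08 in CTR mice, and the groups overlapped. The rise after KA was 1.77-fold in KO mice (log2 difference 0.83 with a standard error of 0.18, adjusted p = 0.0026) and 7.22-fold in CTR mice (log2 difference 2.85 with a standard error of 0.18, adjusted p = 4.2e-11). Ccn1 was therefore 3.81-fold lower in KO KA than in CTR KA mice (log2 difference −1.93 with a standard error of 0.19, adjusted p = 3.7e-07), and the interaction was −2.02 (standard error 0.26, adjusted p = 3.8e-05). All 5 KO KA arrays still lay above all 6 KO saline arrays, and no array decided a call in the leave-one-out fits.

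The dimmer Ccn1 probes gave the same picture with smaller changes. ILMN_1235571 averaged 8.15 ± 0.39 in KO KA and 9.52 ± 0.50 in CTR KA mice (SD, n = 5 each), and ILMN_2710253 averaged 7.98 ± 0.20 in KO KA and 9.41 ± 0.47 in CTR KA mice. Both were called lower in KO KA than in CTR KA mice (log2 differences −1.37 and −1.42) and both had a called interaction (−1.38 and −1.29). The KA response within KO mice was called by the main probe alone: the dimmer ones changed by 0.42 on the log2 scale with an adjusted p of 0.13 and by 0.33 with an adjusted p of 0.21, and KO KA and KO saline arrays overlapped.

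Ccn2, a cofactor of TGF-β signalling that promotes matrix deposition, lay well above the low end of the scale in every group. Its log2 signal was 13.11, 12.82, 13.17, 14.16 and 12.88 in the KO KA arrays, against 13.22, 15.71, 13.80, 15.47 and 15.23 in the CTR KA arrays. Replicate 4 stood above the others in KO KA, and replicates 1 and 3 stood below the others in CTR KA, near the KO values. After saline the lowest, median and highest arrays had 9.67, 12.04 and 12.81 in KO mice and 9.43, 11.33 and 12.40 in CTR mice. Ccn2 rose 3.31-fold after KA in KO mice (log2 difference 1.73 with a standard error of 0.56, adjusted p = 0.044) and 11.0-fold in CTR mice (log2 difference 3.45 with a standard error of 0.56, adjusted p = 4.3e-05). The call in KO mice was weak, and it was lost when any of 11 single arrays was left out (adjusted p between 0.05 and 0.12), among them each of the 5 KO KA arrays. The level in KO KA was 2.75-fold below that in CTR KA mice (log2 difference −1.46, 95% confidence interval −2.68 to −0.24), with an adjusted p of 0.14. The interaction of −1.73 (95% confidence interval −3.38 to −0.07) had an adjusted p of 0.31, so neither passed the threshold, and both intervals reach from near 0 to a reduction larger than that of Ccn1. The second probe, ILMN_1238215, tracked the main one closely, with log2 differences of 1.75 in KO and 3.38 in CTR mice after KA and −1.46 between KO and CTR after KA. On that probe KO KA and KO saline arrays overlapped, while on the main probe the lowest KO KA array, 12.82, lay just above the highest KO saline array, 12.81.

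Ccn4, which is known for promoting growth and survival of mesenchymal cells, behaved in the opposite way to Ccn1. Its log2 signal was 10.94, 10.76, 9.74, 10.70 and 11.13 in the KO KA arrays, against 9.50, 9.35, 8.82, 8.67 and 9.79 in the CTR KA arrays. The groups overlapped by a single pair, KO KA replicate 3 at 9.74 and CTR KA replicate 5 at 9.79. After saline the lowest, median and highest arrays had 8.20, 8.39 and 8.66 in KO mice and 8.03, 8.32 and 8.58 in CTR mice. All KA arrays lay above all saline arrays of their genotype, a separation seen upward for 7.53% of all genes in KO and for 9.29% in CTR mice. Ccn4 rose 4.81-fold after KA in KO mice (log2 difference 2.27 with a standard error of 0.20, adjusted p = 3.2e-08) and 1.86-fold in CTR mice (log2 difference 0.90 with a standard error of 0.20, adjusted p = 0.0013). It was 2.68-fold higher in KO KA than in CTR KA mice (log2 difference 1.42 with a standard error of 0.21, adjusted p = 5.6e-05). The interaction of 1.37 (standard error 0.28, adjusted p = 0.0051) was close to its threshold of 0.01 and passed it no more when any of 9 single arrays was left out, with values between 1.25 and 1.36 and adjusted p between 0.01 and 0.013.

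The dimmer Ccn4 probe, ILMN_2453775, did not pass the call in any comparison. It averaged 7.87 ± 0.18 in KO KA and 7.70 ± 0.17 in CTR KA mice (SD, n = 5 each), below the median of all signals, and 7.50 in both saline groups. Its KA response was 0.37 in KO mice (adjusted p = 0.013, below 1.5-fold) and 0.21 in CTR mice (adjusted p = 0.17), and KO minus CTR after KA was 0.17 (adjusted p = 0.43). The account of Ccn4 thus rests on 1 probe.

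Ccn3, which antagonises several actions of CCN2 in other tissues, gave no call. Its main probe averaged 7.93 ± 0.43 in KO KA and 8.11 ± 0.67 in CTR KA mice (SD, n = 5 each), and 8.09 ± 0.38 in KO saline and 8.06 ± 0.39 in CTR saline mice (SD, n = 6 each). The 95% confidence interval of the KA response was −0.69 to 0.38 in KO and −0.48 to 0.59 in CTR mice, and KO minus CTR after KA lay between −0.74 and 0.37. Its other probe, ILMN_1231797, was below the median signal in all 4 groups, at means between 7.47 and 7.52.

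Ccn5, the member without the cysteine knot, also gave no call. It averaged 7.75 ± 0.24 in KO KA and 8.05 ± 0.49 in CTR KA mice (SD, n = 5 each), and 7.76 ± 0.27 in KO saline and 7.81 ± 0.19 in CTR saline mice (SD, n = 6 each). The CTR KA arrays fell into a high and a low part, with 8.36, 8.45 and 8.40 in replicates 2, 4 and 5 and with 7.44 and 7.60 in replicates 1 and 3. KO minus CTR after KA had a confidence interval of −0.67 to 0.08 on the log2 scale. For signals this close to the low end, a difference of small size could be missed with these arrays. A covariate chosen after the data were seen, the mean of fibroblast and meningeal markers, gave a KA response of 0.39 in CTR mice. Its standard error was 0.089 and its limma adjusted p 0.0016, and it stayed below 1.5-fold. With the mean of mural cell markers in its place the value was 0.24 (adjusted p = 0.083).

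After saline no CCN gene differed between the genotypes by the test. The log2 differences of KO minus CTR were 0.10 for Ccn1, 0.27 for Ccn2, 0.02 for Ccn3, 0.06 for Ccn4 and −0.05 for Ccn5, each with an adjusted p of 1. The interval was narrow for Ccn1 (−0.26 to 0.45) and Ccn4 (−0.34 to 0.45) and wide for Ccn2 (−0.85 to 1.38). On all probes the limma fit called 1 probe in this comparison, that of Srf, and 991 probes had an unadjusted p under 0.05.

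**Figure D2:**
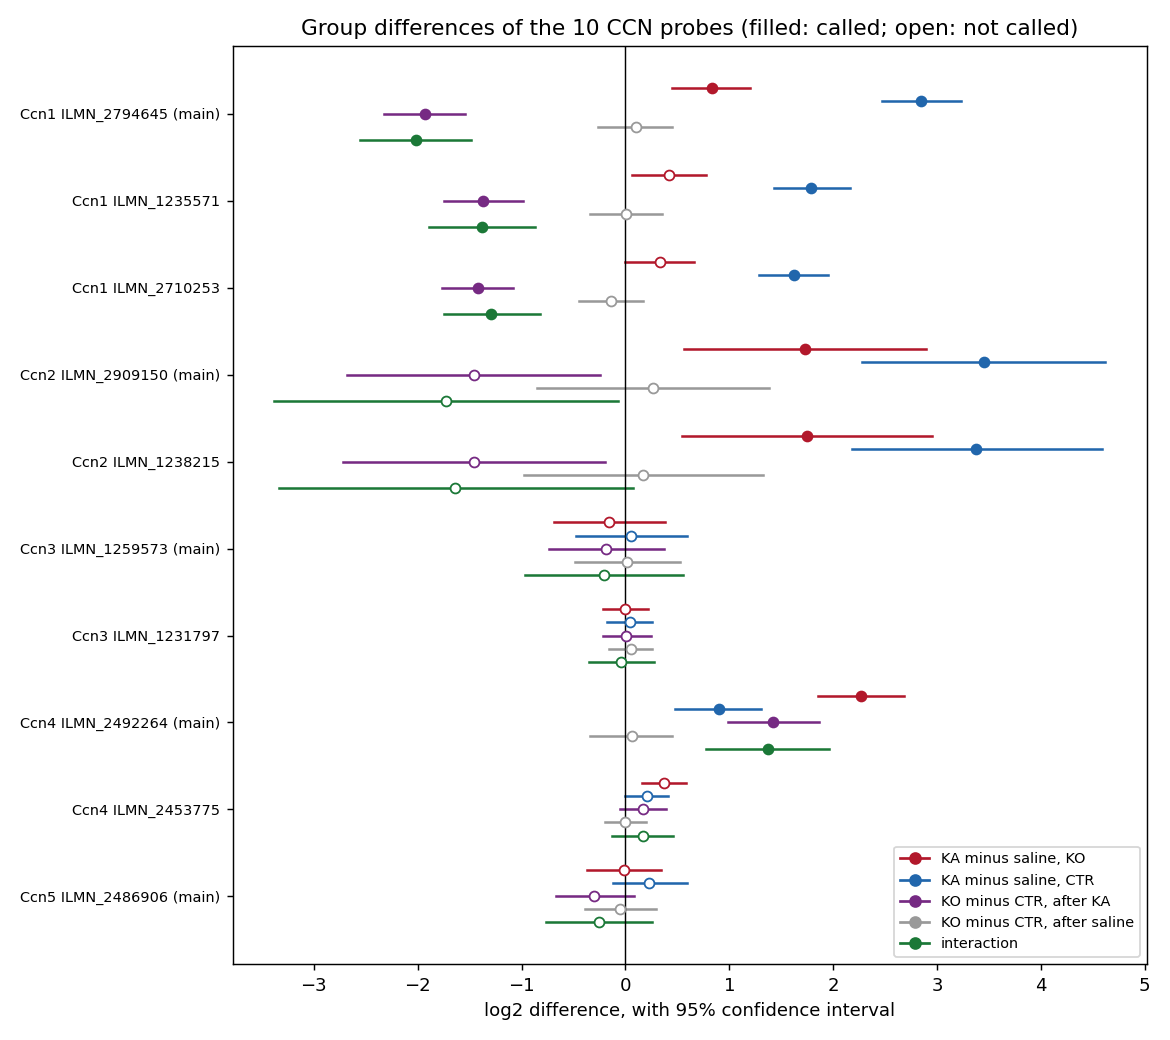
Log2 differences (x axis) with 95% confidence intervals for the 10 CCN probes (rows) in the 5 comparisons (colours), filled where called. The 3 Ccn1 probes lie left of 0 for KO minus CTR after KA (−1.93, −1.37 and −1.42), the main Ccn4 probe lies right of it (1.42) and the Ccn2 intervals are wide.

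The spread between animals of one group set Ccn2 apart from the other members. Its residual standard deviation of 1.04 on the log2 scale ranked 22 from the top among 20289 genes, whose median was 0.18, while that of Ccn1 was 0.33, of Ccn4 0.36, of Ccn3 0.47 and of Ccn5 0.31. Genes of equal signal were not compared, and Ccn3 and Ccn5 lay near the low end, where changes are understated. The Ccn2 probes deviated together from their group means (r = 0.99 over 22 arrays), so both probes showed the spread. Over the same 22 arrays the deviations of Ccn2 and Ccn3 correlated with r = 0.81, those of Ccn2 and Ccn5 with r = 0.75 and those of Ccn3 and Ccn5 with r = 0.77. The deviations of Ccn1 and Ccn4 had values between −0.30 and 0.11 with those of the other members. These are descriptions over arrays that share a platform and a normalization.

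Markers of other cell types moved with this spread. The mean of the 9 mural cell markers (pericytes and smooth muscle cells, with Pdgfrb, Rgs5, Acta2 and Myh11 among them) ran from 9.11 to 9.83 in KO KA, from 9.08 to 10.10 in CTR KA, from 9.22 to 10.15 in KO saline and from 9.21 to 10.13 in CTR saline arrays. The mean of the 8 fibroblast and meningeal markers (Col1a1, Col1a2, Dcn, Lum and others) ran from 9.32 to 11.39 in KO KA, from 9.37 to 11.38 in CTR KA, from 9.80 to 11.52 in KO saline and from 10.17 to 11.58 in CTR saline arrays. No marker of either list had a mean below the median signal. Some lay close to it, with group means of 8.07 to 8.24 for Abcc9, 7.91 to 8.50 for Tagln and 8.11 to 8.56 for Col1a1. The SD within groups was 0.87 to 1.7 for Acta2, 0.5 to 1.3 for Myh11 and 0.54 to 0.82 for Vtn. It was 0.29 to 0.72 for Tagln and at most 0.34 for the other mural markers, Pdgfrb, Rgs5, Kcnj8, Abcc9 and Cspg4. The spread of the mural mean thus came mostly from Acta2, Myh11, Vtn and Tagln. Within groups, Ccn2 correlated with the mural mean at r = 0.93 (Spearman's rho 0.91, and r = 0.91 without the 2 arrays farthest from the median) and with the fibroblast mean at r = 0.88, over 22 arrays. The spread of Ccn2 was not tied to these lists alone. Its r was 0.84 with the endothelial, 0.60 with the pyramidal cell, 0.60 with the GABAergic interneuron and 0.51 with the choroid plexus mean. With the dentate granule cell mean it was −0.43, and with the astrocyte, microglia and oligodendrocyte means 0.08, 0.01 and 0.07. Ccn3 and Ccn5 had r = 0.89 and 0.90 with the fibroblast mean, whereas Ccn1 had −0.19 and Ccn4 0.19.

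The same order can be read from single arrays. In KO KA mice the mural mean was 9.83 in replicate 4, which had the highest Ccn2 signal of its group at 14.16, and between 9.11 and 9.38 in the other 4 arrays. In CTR KA mice it was 9.91, 10.09 and 10.10 in replicates 2, 4 and 5, which had Ccn2 signals of 15.23 to 15.71, and 9.08 and 9.12 in replicates 1 and 3, which had 13.22 and 13.80. None of the 9 mural markers was called in any of the 5 comparisons, and their medians were −0.17 in KO and 0 in CTR mice after KA and −0.23 for KO minus CTR after KA. Of the fibroblast and meningeal markers, Lum was called lower after KA in KO mice (log2 difference −1.14, adjusted p = 0.028) and Slc6a13 in CTR mice (−1.50, adjusted p = 0.049). The medians of the 8 were −0.72 in KO and −0.34 in CTR mice after KA, beside −0.003 and −0.008 over all genes. For KO minus CTR after KA the median of the 8 was −0.51, beside −0.001 over all genes, and none of them was called.

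With the mural mean as a covariate, an alternative chosen after the data were seen, the KA response of Ccn2 was 2.79 in KO mice (standard error 0.23, adjusted p = 2.1e-08) and 3.48 in CTR mice (adjusted p = 2.5e-11). KO minus CTR after KA was then −0.64 (adjusted p = 0.093) and the interaction −0.69 (adjusted p = 0.29). With the fibroblast and meningeal mean in its place the responses were 2.72 in KO and 3.98 in CTR mice, KO minus CTR after KA was −0.87 (adjusted p = 0.066) and the interaction −1.26 (adjusted p = 0.071). The calls of Ccn1 and Ccn4 were kept under both covariates. Within groups these genes hardly followed either mean (r between −0.19 and 0.19), so the fits could scarcely change them. Ccn4 moved more with the means of microglia (r = 0.56), dentate granule cells (0.52), oligodendrocytes (0.48) and pyramidal cells (0.46). Fits with those means were not run. Some mural markers, such as Acta2 and Tagln, are themselves known SRF targets. The part of tissue composition in the Ccn2 values was not tested beyond the mural and the fibroblast and meningeal fits.

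**Figure D3:**
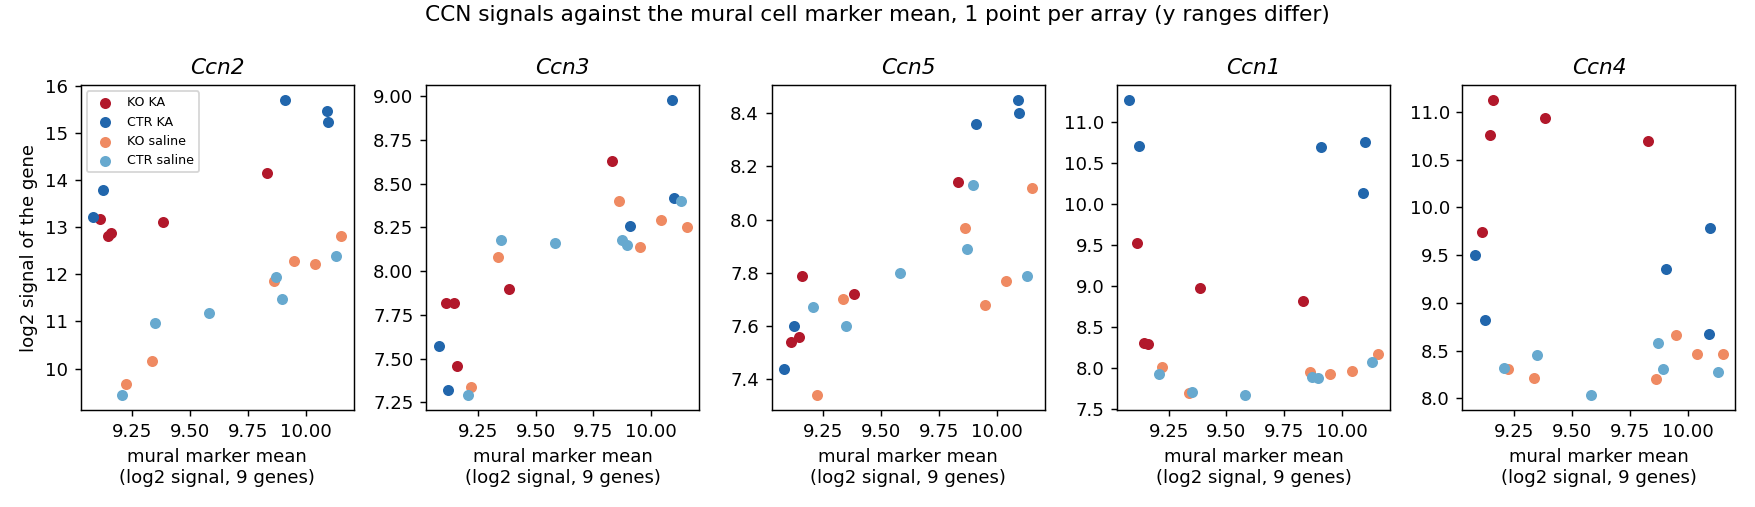
Log2 signal of each CCN gene (y axis, own range per panel) against the mean log2 signal of 9 mural cell markers in the same array (x axis), 1 point per array, coloured by group. Ccn2, Ccn3 and Ccn5 rise with the marker mean within groups (r = 0.93, 0.85 and 0.86 for the deviations from group means), and Ccn1 and Ccn4 do not (−0.09 and 0.17).

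The genes whose log2 signal was most like that of each responding CCN gene over the 22 arrays differed between the members. For Ccn1 these were Rrad, a small GTPase of the RGK family, Gadd45g, a stress-response regulator, the kinase gene Rps6ka3, the orphan receptor gene Gpr3, and Zfp36, whose product degrades AU-rich mRNAs, each with r = 0.97. For Ccn2 they were Angpt2, an endothelial angiopoietin (r = 0.96), the filamin gene Flnc, the intermediate filament gene Vim, the annexin gene Anxa2 (0.94 each) and the actin-binding Synpo (0.93). For Ccn4 they were the AP-1-like factor gene Batf3, the antigen-presenting Cd1d1, the adrenergic receptor gene Adra2c (0.94 each), Helb (0.93) and Tgfb3 (0.92). The likeness is measured across the 4 groups and includes the differences between their means.

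Genes of the systems around the CCN proteins were described from lists. Among 16 receptors and binding partners, 1 was called higher and none lower after KA in KO mice (median log2 difference 0.062, beside −0.003 over all genes). In CTR mice 6 were called higher and 1 lower (median 0.25, beside −0.008). Of all genes, 4.5% were called lower after KA in KO and 8.98% in CTR mice, beside the shares called higher given above for the CCN genes. Vegfa, the angiogenic factor that CCN2 binds, was called in both genotypes, at 1.46 in KO and 2.38 in CTR mice, and its interaction was −0.92 (adjusted p = 0.00056). Itgav, the αV integrin subunit that CCN1 engages, averaged 8.74 ± 0.25 in KO KA and 9.54 ± 0.48 in CTR KA mice (SD, n = 5 each), a difference of −0.80 (adjusted p = 0.0016). Itga5, the α5 subunit of the fibronectin receptor, was also lower in KO KA than in CTR KA mice (−0.90, adjusted p = 0.015). In that comparison 1 of the 16 was called higher and 3 lower (median −0.16), and the one called higher was Itgb5, the β5 integrin subunit (0.64, adjusted p = 0.041), which was named after its values were seen.

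Of 19 measured Hippo pathway genes and TEAD factors, 1 was called higher and 1 lower after KA in KO mice, and 5 were called higher and none lower in CTR mice. Wwtr1, which encodes TAZ, rose in both genotypes (0.79 in KO and 0.89 in CTR mice). The angiomotin-like gene Amotl1 and Mob1b, an activator of LATS kinases, rose in CTR mice (1.09 and 0.96), and both were lower in KO KA than in CTR KA mice (−0.79 and −0.63), as was Tead1 (−0.68, adjusted p = 0.025). Of 18 measured YAP and TAZ targets outside the CCN family, 1 was called higher and 1 lower after KA in KO mice, and 4 higher and 1 lower in CTR mice. Edn1, the gene of the vasoconstrictor endothelin-1, was among those called in CTR mice. It averaged 9.11 ± 0.26 in KO KA and 10.67 ± 0.40 in CTR KA mice (SD, n = 5 each), and 9.22 ± 0.24 in KO saline and 9.17 ± 0.28 in CTR saline mice (SD, n = 6 each). Edn1 and the IGF carrier gene Igfbp3 had called interactions of −1.61 and −1.54, of the same sign as that of Ccn1. No gene of the list other than these 2 was called between KO and CTR after KA.

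Several genes of TGF-β signalling were, like Ccn4, higher in KO KA than in CTR KA mice. Of 18 measured members, 5 were called higher and 1 lower after KA in KO mice, 6 higher and 2 lower in CTR mice, and 4 higher and 1 lower in KO KA than in CTR KA mice, where the median of the list was −0.10. Pmepa1, a feedback inhibitor of SMAD signalling, averaged 12.24 ± 0.32 in KO KA and 11.27 ± 0.50 in CTR KA mice (SD, n = 5 each), a difference of 0.97 (adjusted p = 0.00048). The ligand gene Tgfb3 averaged 10.65 ± 0.29 in KO KA and 9.73 ± 0.31 in CTR KA mice (difference 0.92, adjusted p = 0.00062), and Smad3 and the SMAD corepressor gene Skil were higher by 0.80 and 0.61. None of the 18 had a called interaction, and Tgif1, another corepressor, was lower in KO KA than in CTR KA mice (log2 difference −0.59).

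Of 20 measured matricellular genes outside the CCN family, none was called higher and 1 lower after KA in KO mice, and 1 higher and 2 lower in CTR mice. Tnc, tenascin-C, was the one that rose in CTR mice (1.17, adjusted p = 3.2e-05), and it averaged 8.63 ± 0.22 in KO KA and 9.58 ± 0.61 in CTR KA mice (SD, n = 5 each). Between KO KA and CTR KA mice none of the 20 was called higher and 2 lower, Tnc (−0.95, adjusted p = 0.0019) and the thrombospondin gene Thbs2 (−0.70, adjusted p = 0.048). Of SRF and 5 of its cofactor genes, Elk4 was called higher after KA in both genotypes (0.92 in KO and 1.07 in CTR mice), and Srf alone was called between the genotypes.

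**Figure D4:**
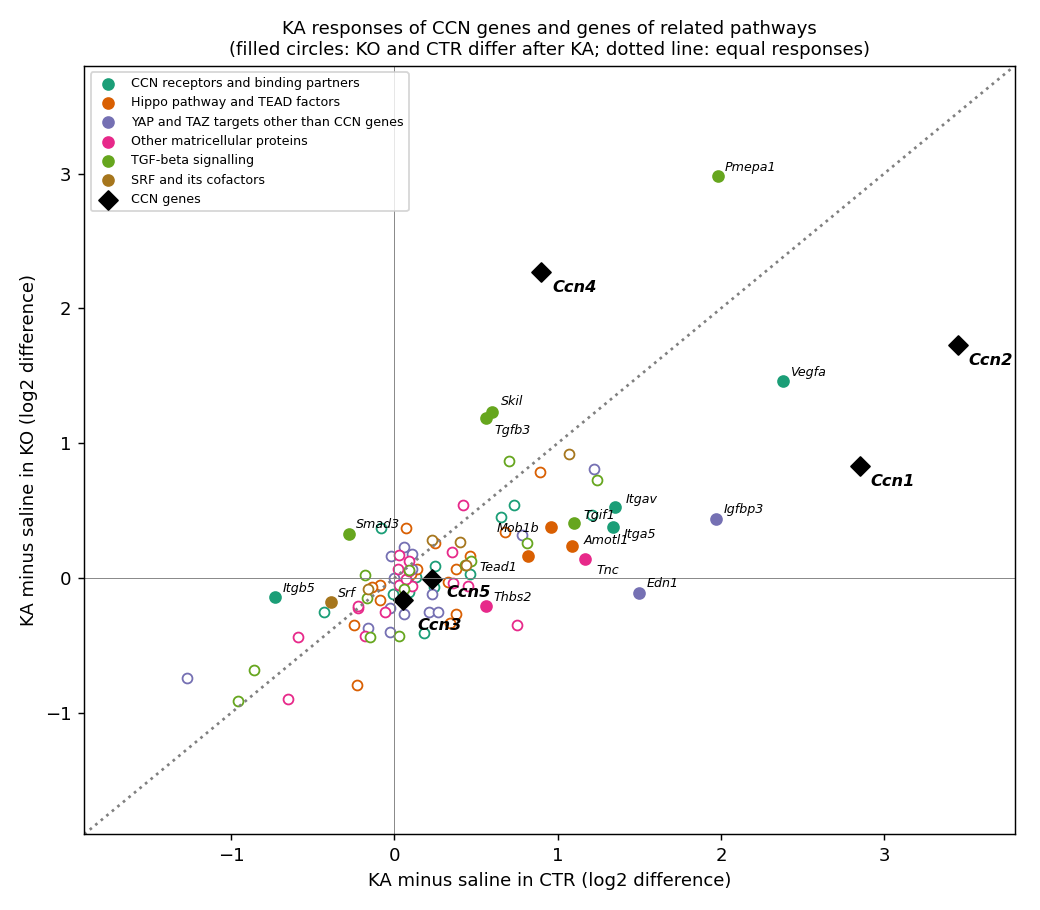
KA response in KO mice (y axis) against that in CTR mice (x axis), both as log2 differences of KA minus saline, for the CCN genes (black diamonds) and the genes of 6 related lists (circles, filled and named where KO and CTR differed after KA). Ccn1 (0.83 in KO, 2.85 in CTR) lies below the dotted line of equal responses with Edn1 and Igfbp3, and Ccn4 (2.27 in KO, 0.90 in CTR) lies above it with Pmepa1, Tgfb3 and Skil.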

How the data were processed

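The authors subtracted the background of the Illumina signals with the BeadArray package, applied quantile normalization and took log2, and these deposited log2 signals of 46237 probes were used without further scaling. A second deposited table of linear signal intensity was set aside: 16 of its 22 columns lay closest to another sample than the one in their heading, 8 of them to a sample of the other genotype, which of the tables is named correctly is not settled by the labels, and its column medians of 235.7 to 235.91 showed that it was already normalized. No detection p, control probe or slide position was used. The number of arrays limits the precision, and array medians lay between 7.86 and 7.91.

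Probe symbols came from the platform annotation (35784 probes) and were updated through RefSeq (GRCm38.p6) by Entrez ID (28620), accession (2637), symbol (2128) or synonym (2343), with 56 kept as given, which left 20289 genes. Group means were fitted with limma 3.58.1 in R 4.3.3 over 22 arrays (18 residual degrees of freedom) and adjusted by Benjamini-Hochberg over all probes. The fit was tested on simulated data. Each array is a separate animal. Genes were named by rule: the CCN genes, up to 3 called genes per list and comparison with the largest change, Srf, and the 5 genes most like each called CCN gene. Marker genes of the cell types described were named as well. The CCN genes and the lists were chosen with earlier results of these data known. Alternatives were array weights, a filter on dim probes, an unmoderated two-way fit, the compared groups alone and a replicate block. Other probes, marker covariates and leaving out each array were used as well. A further background correction (normexp) was added on top of the signals that the authors had already corrected and normalized. The authors' own correction was thus not varied.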

Additional observations from a re-analysis of the deposited data

Results flagged for a closer look

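Ccn2 in KO KA mice had 1 array far from the others: replicate 4, at 14.16, lay above the next by 0.744 of the range of its group. Ccn3 had a low array in KO saline mice (replicate 6, at 7.34, a gap of 0.702 of the range) and in CTR saline mice (replicate 2, at 7.29, a gap of 0.778). In the same arrays the mural marker mean was 9.83, 9.22 and 9.21, the highest of its group for Ccn2 and the lowest of their groups for Ccn3. Of 20 groups examined, 3 had such an array. The critical value used is passed by chance in about 1 in 20 independent groups, and these groups are not independent, since the genes share arrays and Ccn2 and Ccn3 deviated together (r = 0.81).

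The KA response differed between the genotypes by the interaction test for Ccn1, at −2.02 (adjusted p = 3.8e-05), and for Ccn4, at 1.37 (adjusted p = 0.0051). Of the remaining members, Ccn2 had −1.73 (adjusted p = 0.31).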

How the results depend on the processing

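Of 765 values of single CCN genes under the alternatives, 703 kept their direction and their side of the threshold. This total does not measure stability. Leaving out an array of a group not compared cannot change a difference, and the unmoderated fit keeps every difference. Many entries also belonged to genes without a call to lose. With the other probe, Ccn4 was no longer called after KA in KO (0.37) or CTR mice (0.21), between the genotypes after KA (0.17) or in the interaction (0.17), and Ccn1 was no longer called after KA in KO mice (0.42 and 0.33). The two-way fit without moderation kept the values of Ccn2 after KA in KO mice (1.73, adjusted p = 0.09) and of the Ccn4 interaction (1.37, adjusted p = 0.018) but not their calls, which left 1 called interaction in place of 2. Values that changed sign belonged to genes without a call: with array weights Ccn3 after KA in CTR (−0.05) and Ccn5 after saline (0.02); with the fibroblast covariate Ccn3 and Ccn5 after KA in KO (0.30 and 0.29), Ccn3 between genotypes after KA (0.08) and its interaction (0.01); with the mural covariate the same (0.28, 0.28, 0.15 and 0.21), Ccn3 after saline (−0.06) and the Ccn5 interaction (0.03); and with other probes Ccn3 after KA in KO (0) and between genotypes after KA (0.01) and Ccn1 after saline (−0.14). The causes were not tested.

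Leaving out 1 array at a time gave Ccn1 0.64 to 0.95 (KA in KO), 2.71 to 3.00 (KA in CTR), −2.11 to −1.79 (KO minus CTR after KA) and −2.21 to −1.88 (interaction). Ccn4 gave 2.15 to 2.50, 0.76 to 1.04, 1.29 to 1.65 and 1.23 to 1.60 in the same order. Its interaction lost the call without KO KA replicates 1, 2, 4 or 5, CTR KA replicate 3, KO saline replicates 4 or 5, or CTR saline replicates 3 or 4 (1.25 to 1.36), which gave 1 to 2 called interactions. Ccn2 gave 1.36 to 1.99 (KA in KO) and 3.09 to 3.82 (KA in CTR), and the call in KO mice was lost without any KO KA array, KO saline replicates 4 to 6, or CTR saline replicates 1, 3 or 6 (1.36 to 1.83). Of the values without a call, those that changed sign were Ccn3 (−0.17 to 0.25) after KA in CTR, Ccn5 (−0.11 to 0.06) after KA in KO, Ccn2 (−0.09 to 0.64), Ccn3 (−0.13 to 0.17), Ccn4 (0 to 0.11) and Ccn5 (−0.12 to 0.04) after saline, and Ccn3 between genotypes after KA (−0.38 to 0.03) and in the interaction (−0.41 to 0.01).

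The deviations of same-numbered arrays correlated between −0.27 and 0.37 over 31 pairs, 17 of them over 0.1. Differently numbered arrays were not compared, so these values cannot show whether replicate numbers pair the animals. With the replicate block Ccn2 after KA in KO mice was no longer called (1.57, adjusted p = 0.1), Ccn3 after KA in CTR mice was −0.01, and no other CCN call changed. Over all probes, the 966 called interactions became 613 without moderation and 1576 with array weights, the 2209 calls between KO and CTR after KA became 1463 with those groups alone, and the 1 call after saline became 3 with normexp or those groups alone, 2 above the median signal and 4 with array weights. Background correction and no correction of the second table were not run, since its names and those of the log2 table disagree, nor was a slide block. Precision near the low end of the signal is limited.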

Other observations

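Endothelial markers, whose mean also moved with Ccn2 within groups (r = 0.84 over 22 arrays), did not share 1 direction after KA. In CTR mice Cdh5, vascular endothelial cadherin, and Pecam1, a junction protein, were called higher (log2 differences 0.92 and 0.97), and the angiopoietin receptor gene Tek and the transporter gene Slco1a4 were called lower (−1.07 and −0.85), while the other 6 of 10 were not called. None of the 10 was called after KA in KO mice. Between KO KA and CTR KA mice Cdh5 (−0.97, adjusted p = 0.00039) and Pecam1 (−0.70, adjusted p = 0.033) were lower in KO. The endothelial mean ran from 10.02 to 10.68 in KO KA and from 10.11 to 10.75 in CTR KA arrays.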
